A study of Mus musculus with 7 samples.

Results

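The comparison of day 2 with day 1 of differentiation covers the second day that primary mouse myogenic progenitor cells spent in low-serum medium. Its members were all assays for mouse or rat miRNAs in the day 1 and day 2 columns of threshold cycles (Ct), chosen by assay name and not by value. They numbered 375 of the 375 miRNA assays of the series, 40 of them for rat sequences. The cells came from hind limb muscle of C57BL/6J mice, whose age and number the labels do not give, and were used at passage 3 after growth in Ham's F-10 medium with 20% fetal bovine serum and 10 ng/ml FGF-2. For differentiation they were plated on a coat of entactin, collagen IV and laminin, kept for 24 h in growth medium (day 0), and then moved to DMEM with 2% horse serum, in which both the day 1 and the day 2 cells lay. Both groups thus had the same medium and differed in the time spent in it. Each day had 4 rows of TaqMan real-time PCR wells, numbered here by position. Whether a row is a culture of its own or a repeat well is not given in the labels. All p-values therefore reflect the spread between rows, which may be technical.

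Myogenic progenitors leave the cell cycle when serum is withdrawn, align and fuse into multinucleated myotubes. During this course the muscle-restricted miRNAs, transcribed with or within muscle genes and driven by the myogenic factors, accumulate. A miRNA guides silencing through pairing of its seed (bases 2 to 8 from the 5′ end) with target mRNAs, so miRNAs with 1 seed are treated as a family. The hairpin that is cut from the primary transcript gives a 5p and a 3p strand, and the strand that is loaded into Argonaute is usually far more abundant than the other.

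The sequences below are those of the members on which the results turn, from RefSeq on GRCm38.p6, with the seed in capitals. RefSeq gave a mature sequence for 237 of the 375 assays, 90 by exact name and 147 through the arm that a plain assay name stands for. The muscle-restricted miRNAs miR-499 (from Mir499, within the span of the myosin heavy chain gene Myh7b, chr2:155622880-155622958, plus strand), miR-208b (Myh7, chr14:54975700-54975776, minus strand) and miR-133b (Lincmd1, chr1:20682769-20682887, plus strand) read as follows.
miR-499: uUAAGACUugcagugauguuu
miR-208b: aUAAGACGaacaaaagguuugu
miR-133b: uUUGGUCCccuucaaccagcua

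miR-322, miR-503 and miR-351 are shown because they lie in 1 cluster on the X chromosome (chrX:53048154-53054349, minus strand, with miR-542 and miR-450a) and yet carry different seeds, which for miR-351 is that of miR-125b-5p.
miR-322: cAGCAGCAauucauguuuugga
miR-503: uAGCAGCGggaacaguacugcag
miR-351: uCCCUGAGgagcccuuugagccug
miR-125b-5p: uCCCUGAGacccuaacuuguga

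Near-identical pairs are shown because 1 member rose and the other did not pass the test. miR-10a and miR-10b differ at 1 position, and let-7a and miR-98 at 2 positions.
miR-10b: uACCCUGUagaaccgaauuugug
miR-10a: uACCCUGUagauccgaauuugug
miR-98: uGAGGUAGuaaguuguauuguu
let-7a: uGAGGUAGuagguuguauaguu

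The arms of miR-335 (within Mest, chr6:30741299-30741396, plus strand) and miR-615 (within Hoxc5, the 5p arm at chr15:103014926-103014947, plus strand) are shown because the arms of each hairpin moved apart.
miR-335-5p: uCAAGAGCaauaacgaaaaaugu
miR-335-3p: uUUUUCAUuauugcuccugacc
miR-615-5p: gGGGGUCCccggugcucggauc
miR-615-3p: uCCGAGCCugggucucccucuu

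Of the 375 assays, 237 gave a Ct in all 8 rows of the days, 49 in 1 to 7 rows and 89 in none. Between 251 and 263 assays were detected in a row, at Ct 12.25 to 39.96, and a Ct lower by 1 cycle stands for about 2-fold more template. The level used here is the Ct of the small nuclear RNA MammU6 minus the Ct of the miRNA in the same row. It is on a log2 scale, and a higher value means more miRNA for each unit of MammU6. Levels of different assays are not compared, since assays may differ in efficiency. In these bulk samples, fewer cells of a type and less RNA per cell cannot be told apart. Testing required a Ct in at least 3 of 4 wells on each day and a mean Ct under 35 on at least 1 of them, which left 241 assays.

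MammU6 stood apart in row 1. Its Ct was 13.25, 12.30, 12.54 and 12.74 in the rows of day 1 and 13.85, 12.51, 12.73 and 12.55 in those of day 2. Row 1 was thus later than the mean of the other rows by 0.72 cycles on day 1 and by 1.25 on day 2, while the median miRNA assay of row 1 was later by 0.23 on both days. The median Ct of the 229 miRNA assays with a Ct in every row of the course moved from 24.95 to 24.47. Changes were therefore also computed against that row median, and values that do not name it are against MammU6. The other controls, snoRNA202, U87, Y1 and snoRNA135, lay at 0.38, 0.48, 0.50 and 0.18 against MammU6 (SE 0.44 in each case, 0 of 4 past the limma test, adjusted p 0.52 to 0.67, and 0 at an unadjusted p under 0.05).

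**Figure D1:**
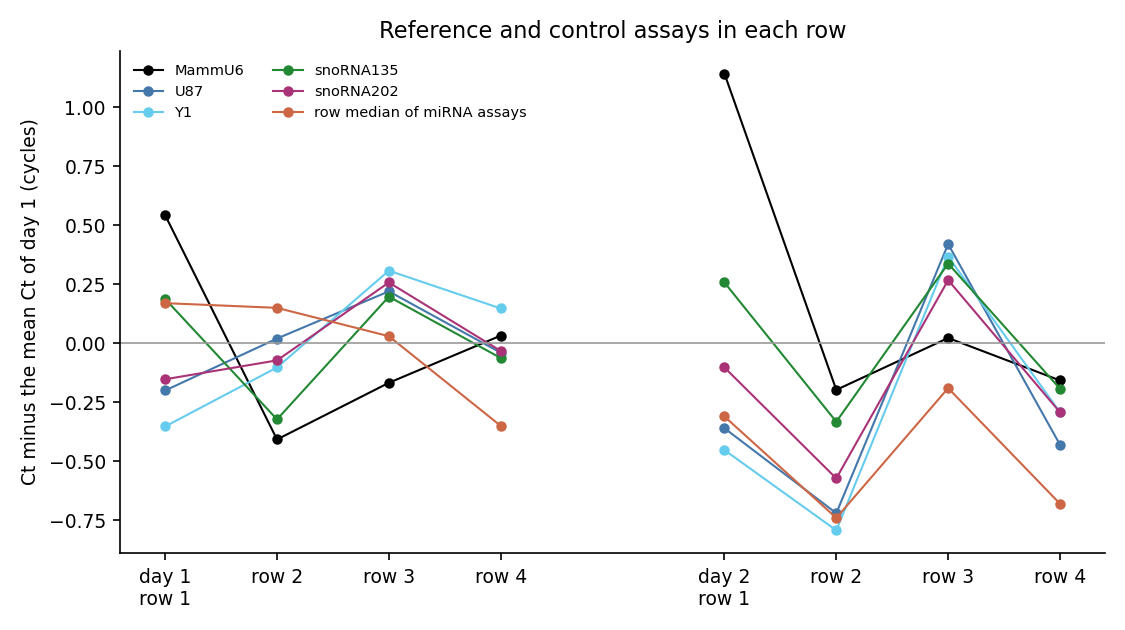
Ct of MammU6, of the 4 other controls and of the median miRNA assay in each row of days 1 and 2, as the difference in cycles from the mean Ct of day 1. MammU6 is latest in row 1 on both days, whereas all 4 points of the median miRNA assay on day 2 lie below 0.

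Over all assays, 32 of 241 (13.3%) passed the limma test at a Benjamini-Hochberg adjusted p under 0.05 against MammU6, 28 higher on day 2 (11.6%) and 4 lower (1.66%), and 27 of them had changed at least 2-fold. The median change was 0.60 on the log2 scale, with quartiles of 0.17 and 0.97. Against the row median, 46 passed (19.1%), with a reverse split of 13 higher (5.39%) and 33 lower (13.7%), and the median lay at -0.09. Passing against both references were 12 higher (4.98%) and 4 lower (1.66%). A further 16 passed against MammU6 alone and 30 against the row median alone, and 0 passed in opposite directions. Without row 1 of every day, 41 passed against MammU6, 36 higher and 5 lower, among them 26 of the 32. The count of 32 fell to 17 when day 1 row 3 or day 2 row 2 was left out, to 19 without row 2 of day 1 and to 21 without row 1 of day 2. The lowest row of day 2 exceeded the highest of day 1 in 42 assays (17.4%), and the reverse held in 3 (1.24%), or in 18 (7.47%) and 35 (14.5%) against the row median.

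Muscle-restricted miRNAs rose during the second day, and 5 of the 6 tested members passed higher against both references, beside 4.98% of all assays, with a median change of 2.03 beside 0.60. Their rises against the row median were 3.04 for miR-499, 2.33 for miR-1, 1.48 for miR-486, 1.21 for miR-133a and 0.78 for miR-133b. The level of miR-499, a miRNA of slow and cardiac muscle, was -19.53, -20.50, -19.47 and -17.90 in the rows of day 1 and -14.42, -16.43, -16.22 and -15.43 in those of day 2. Every row of day 2 lay above every row of day 1. The rise was 3.73 ± 0.77 (SE, n = 4 rows a day, limma adjusted p = 0.00463), or 13.2-fold, from a mean Ct of 32.1 to 28.5. The signed fold in the authors' deposited table was likewise 13.2. miR-1, which represses non-muscle genes and whose targets include the histone deacetylase Hdac4, had levels of -9.16, -9.60, -7.82 and -7.84 on day 1 and of -4.80, -6.06, -5.78 and -5.73 on day 2. These groups did not overlap either, and the rise was 3.01 ± 0.45 (limma adjusted p = 0.000598), or 8.07-fold. The assay for the rat sequence of miR-1 rose by 2.36 ± 0.45.

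miR-133a, made from the same primary transcripts as miR-1, gave levels of -1.62, -2.09, -1.97 and -1.36 on day 1 and of 0.63, 0.26, -0.07 and -0.31 on day 2. It rose by 1.89 ± 0.30 (limma adjusted p = 0.000918). miR-133b, encoded beside miR-206, which was not analysed here, rose by 1.47 ± 0.39, and its rows did not overlap. The call was lost when day 1 rows 2 or 3, or day 2 rows 1 or 2, were left out singly (1.18 to 1.48, adjusted p up to 0.0855), but it passed against the row median with any 1 row left out. miR-486, which is carried by the ankyrin gene Ank1, rose by 2.17 ± 0.49, from -18.4 ± 0.35 (SD) to -16.2 ± 0.64. The exception was miR-208b at 0.93 ± 0.45 (limma adjusted p = 0.19), whose level on day 2, -17.2 ± 0.17, lay within the range of its 4 rows on day 1, -18.93 to -16.75. The cardiac miR-208 had a Ct in 0 wells of day 1 and 1 of day 2 and was not tested.

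**Figure D2:**
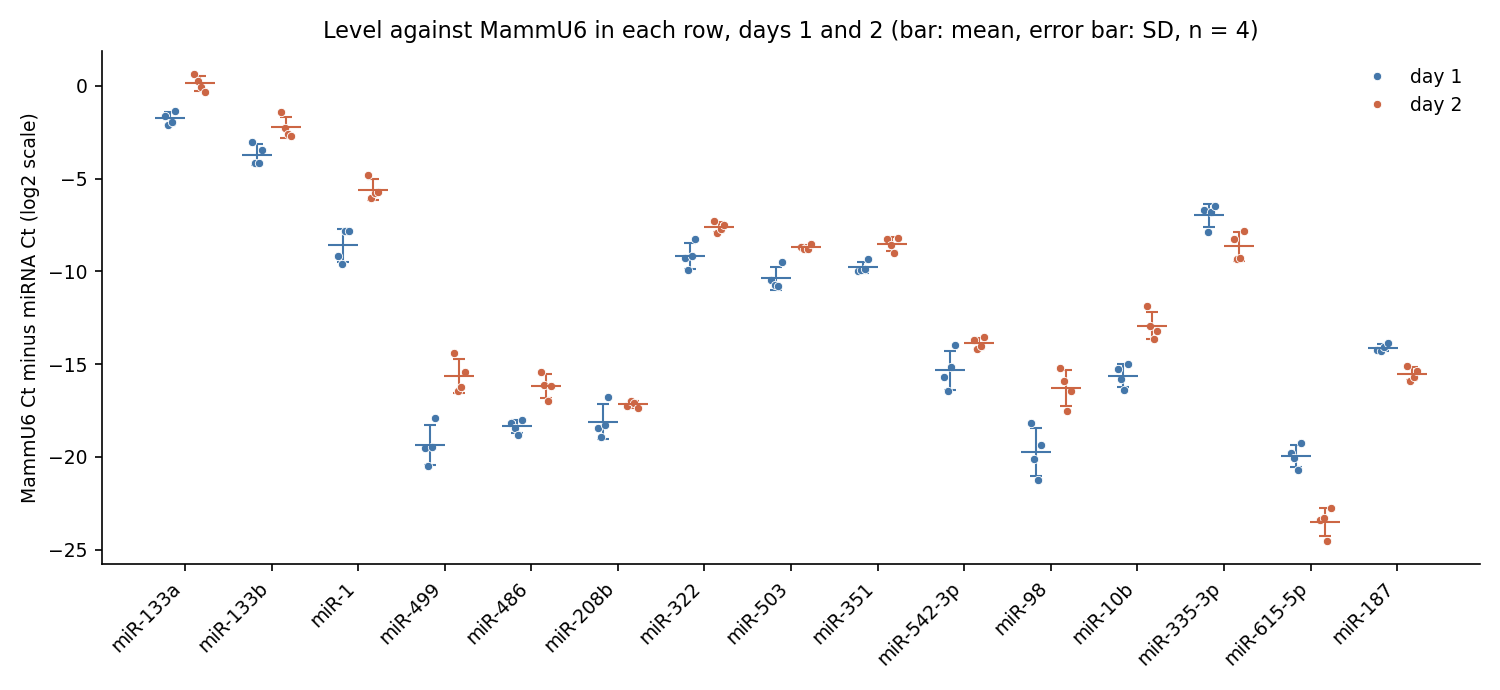
Level against MammU6 (log2 scale) of 15 miRNAs in each of the 4 rows of day 1 and day 2, with the mean and SD. The groups of miR-1, miR-133a, miR-499, miR-10b and miR-98 are separate with day 2 above, miR-615-5p and miR-187 are separate with day 2 below, and miR-208b overlaps.

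In the X-linked cluster of miR-322, miR-503, miR-351, miR-542 and miR-450a, 5 of 6 tested assays passed higher against MammU6, beside 11.6% of all assays, and the median change was 1.36, beside 0.60. In mouse myoblasts miR-322 and miR-503 are known to lower the cell cycle phosphatase Cdc25a. miR-503 had levels of -10.46, -10.75, -10.80 and -9.47 on day 1 and of -8.67, -8.79, -8.81 and -8.52 on day 2. The day 2 rows lay close together and above every day 1 row, and the rise was 1.67 ± 0.35 (limma adjusted p = 0.00533), or 3.19-fold. miR-322 went from -9.30, -9.92, -9.19 and -8.24 to -7.30, -7.95, -7.72 and -7.51, a rise of 1.54 ± 0.37 with no overlap. miR-351 rose by 1.27 ± 0.31, and the rat-sequence assay of miR-351 by 1.35 ± 0.28 (limma adjusted p = 0.00463). Both arms of miR-542 passed, the 3p arm at 1.45 ± 0.44 (adjusted p = 0.0424) and the 5p arm at 1.03 ± 0.33 (adjusted p = 0.0498). Neither arm passed when any 1 row other than row 4 of day 1 was left out (0.88 to 1.91). miR-450a-5p lay at 0.89 ± 0.48 (adjusted p = 0.22).

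Of the same 6 assays, 0 passed in limma against the row median, and 2 had an unadjusted p under 0.05. miR-322 was at 0.86 (adjusted p = 0.0543), miR-503 at 0.99 (adjusted p = 0.0595), and the median of the 6 at 0.68, beside -0.09 for all assays. The calls of the cluster were thus made against MammU6 and not against the row median. All 5 were also lost with U87, Y1 or the mean of the 4 other controls as the reference. With snoRNA202 miR-503 alone was kept, and with snoRNA135 all but miR-542-3p were kept. The seed family was not uniform either. Of the 7 tested miRNAs with the seed of miR-15, miR-16 and miR-322 or the near seed of miR-503, the 2 of the X-linked cluster rose against MammU6, while miR-15b, which shares the seed of miR-322, lay at -0.42 ± 0.37 and fell against the row median by 1.10 (adjusted p = 0.000579). miR-16 lay at -0.37, miR-497 at -0.02, miR-195 at 0.06 and miR-15a at 0.13, and none of these 4 passed against either reference. Against the row median they lay at -1.05, -0.705 (limma adjusted p = 0.0514), -0.63 and -0.55 in the same order. In that fit 6 of the 7 had an unadjusted p under 0.05, in either direction. Likewise miR-351 rose, but miR-125b-5p (0.33 ± 0.49) and miR-125a-5p (0.12 ± 0.27), which have its seed, did not pass.

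**Figure D3:**
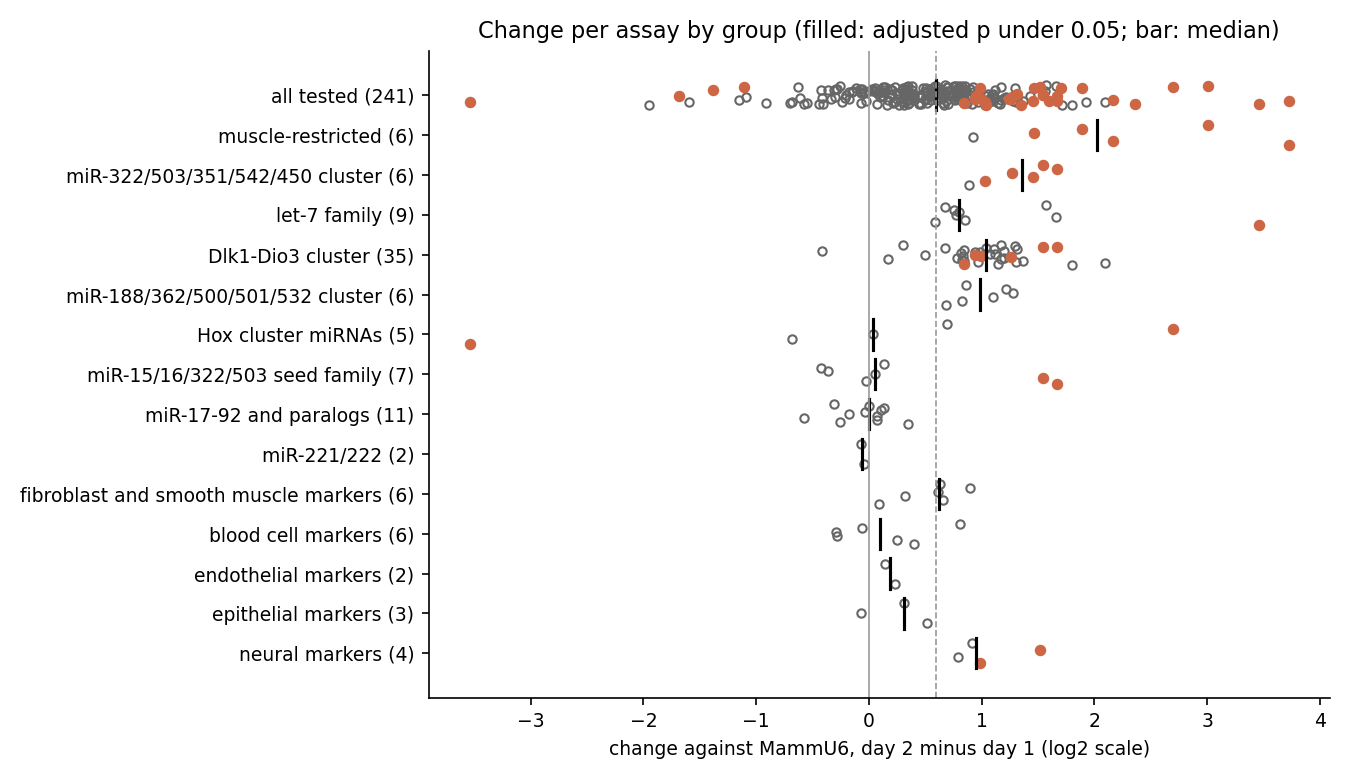
Change against MammU6 from day 1 to day 2 (log2 scale) of each tested assay, over all 241 assays and by group, with group sizes in brackets, filled points for an adjusted p under 0.05 and a bar at the median. Most muscle-restricted members and members of the X-linked cluster lie to the right of the dashed line at the median of all assays (0.60), and the miR-17-92 group lies around 0.

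Among the 9 let-7 miRNAs tested, which hold back cell cycle and growth genes in differentiated cells, all 9 changes were above 0, as were 199 of all 241, and 1 passed, a share near the 11.6% of all assays that passed higher. That member, miR-98, lies within the ubiquitin ligase gene Huwe1 on the X chromosome. Its levels were -18.15, -20.11, -21.25 and -19.38 on day 1 and -15.21, -15.90, -17.50 and -16.45 on day 2. It rose by 3.46 ± 0.74 (limma adjusted p = 0.00572), with no overlap, and by 2.77 against the row median. The mean Ct of 32.4 on day 1 was late, and the SD of its rows was 1.30. let-7f, at 1.66 ± 0.60 (adjusted p = 0.0709), and let-7a, at 1.57 ± 0.59 (adjusted p = 0.0888), had overlapping rows. The remaining 6 lay between 0.58 and 0.86.

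Hox cluster miRNAs, which are transcribed with the Hox genes that set position along the body axis, had 1 of 5 tested assays higher, 1 lower and 3 that did not pass against MammU6. Of all assays, 11.6% passed higher and 1.66% lower, and so few members allow no statement about the group. miR-10b, within the span of Hoxd3 and Hoxd4, had levels of -15.28, -15.82, -16.37 and -15.00 on day 1 and of -11.89, -12.96, -13.65 and -13.19 on day 2. The groups were separate, and the rise was 2.69 ± 0.53 (limma adjusted p = 0.00405), or 6.48-fold, and 2.01 against the row median. Its near-twin miR-10a, from the Hoxb cluster, lay at 0.69 ± 0.71, with a day 1 range of -16.89 to -14.01. An assay may also detect part of a near-identical miRNA, which was not tested. miR-615-5p, from Hoxc5, was the miRNA with the lowest adjusted p. Its levels fell from -19.80, -20.06, -20.70 and -19.27 to -23.41, -23.31, -24.52 and -22.75. The days did not overlap, and the fall was -3.54 ± 0.40 (adjusted p = 5.13e-05), or 11.6-fold, and -4.22 against the row median. The mean Ct on day 2 was 36.4, near the end of the 40 cycles, where wells are less precise. miR-196b lay at 0.04 ± 0.34.

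The Dlk1-Dio3 locus on chromosome 12 holds imprinted miRNA genes that are expressed from the maternal copy and are known from muscle development and stem cells. Of its 35 tested assays 34 had a change above 0, as had 199 of all 241, with a median of 1.04 beside 0.60. Of the 35, 6 passed higher, beside 11.6% of all assays, and 0 lower (17.4% of all assays, and 12 of these 35, had day 2 rows wholly above those of day 1). miR-323-3p rose by 1.54 ± 0.30, from -18.82, -18.76, -18.49 and -19.47 to -17.30, -17.23, -17.40 and -17.45, and miR-433 by 1.26 ± 0.30. miR-329 rose by 1.67 ± 0.48, and it was the member that also passed against the row median, at 0.98 (adjusted p = 0.0458). miR-431, miR-410 and miR-667 passed at 1.00, 0.94 and 0.84 with adjusted p from 0.042 to 0.0486. The calls of the last 4 named changed with single rows. Those of miR-323-3p and miR-433 held with any 1 row left out. They were lost with snoRNA202, U87, Y1 or the mean of the 4 other controls as the reference. The call of miR-329 was lost when day 1 rows 2 or 3, or day 2 rows 1, 2 or 3, were left out (1.34 to 2.04). Against the row median miR-329 passed with no row left out and without row 4 of day 1, but not without another row (0.72 to 1.23, adjusted p up to 0.134) or in a fit of days 1 and 2 alone. miR-410 passed without row 4 of day 1, miR-667 without row 1 of day 1, and miR-431 without either row 4 of day 1 or row 1 of day 2, and these 3 did not pass when another row was left out (0.78 to 1.18). The median of the 35 was 0.36 against the row median.

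miR-329 shares its seed, ACACACC, with miR-362-3p of another X-linked cluster, that of miR-188, miR-362, miR-500, miR-501 and miR-532. Here 6 of 6 changes were above 0, as were 199 of all 241, with a median of 0.98 beside 0.60. In limma 0 passed against MammU6, with 5 at an unadjusted p under 0.05, as were 64 of all 241. miR-362-3p lay just outside the threshold at 1.22 ± 0.40 (adjusted p = 0.0508), with levels of -11.94, -12.66, -12.13 and -11.42 on day 1 and of -9.98, -11.06, -11.16 and -11.07 on day 2. These groups do not overlap. Against the row median it rose by 0.54 (adjusted p = 0.027), a call lost when day 1 rows 1 or 2, or day 2 rows 1 or 3, were left out (0.45 to 0.62).

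Several single miRNAs passed higher as well. miR-139-5p, which lies within the phosphodiesterase gene Pde2a, rose by 1.71 ± 0.29 (limma adjusted p = 0.00145), from -8.98, -9.79, -9.55 and -9.15 to -7.08, -7.72, -7.83 and -8.02, and by 1.02 against the row median. miR-128a, abundant in brain and present in muscle, rose by 1.51 ± 0.41 and by 0.83 against the row median (adjusted p = 0.00138). miR-298 rose by 1.31 ± 0.39 and by 0.63 against the row median, where it did not pass without row 3 of day 1 (0.53). miR-504, within Fgf13, miR-425 and miR-138 passed against MammU6 alone, at 1.60, 1.25 and 0.98. Of these, miR-128a was not called against MammU6 when day 1 rows 2 or 3, or day 2 row 1, were left out (1.22 to 1.72). miR-138 was called with no row left out and without row 4 of day 1, but not without another row (0.82 to 1.19). The MammU6 call was lost for miR-298 in the absence of rows 2 or 3 (day 1) or 1, 2 or 4 (day 2), for miR-425 in the absence of rows 1 or 2 (either day), and for miR-504 in the absence of rows 2, 3 or 4 (day 1) or 1 or 2 (day 2), with changes of 0.94 to 1.73. miR-339-3p and its rat-sequence assay rose by 0.95 ± 0.24 and 1.03 ± 0.27 against MammU6 and did not pass against the row median. Neither passed when day 1 row 3 or day 2 row 2 was left out, and the rat-sequence assay also failed without row 2 of day 1 (0.88 to 1.19).

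Apart from miR-615-5p, 3 miRNAs passed lower against MammU6. miR-187 fell from -14.26, -14.28, -14.06 and -13.88 to -15.08, -15.90, -15.69 and -15.36, a change of -1.39 ± 0.32 (limma adjusted p = 0.00862) with no overlap. miR-125b-3p fell from -13.94, -14.14, -13.66 and -13.45 to -14.64, -15.11, -15.04 and -14.82, a change of -1.10 ± 0.28. The call of miR-125b-3p was lost when day 1 row 3 or day 2 row 2 was left out (-1.22 to -0.99). miR-335-3p fell by 1.69 on the log2 scale (SE 0.54, adjusted p = 0.0486), and its rows overlapped. With 1 row left out it passed when that was row 2 of day 1 or row 4 of day 2, and not otherwise (-1.99 to -1.46). Against the row median the 3 fell by 2.07, 1.79 and 2.37, with any 1 row left out too.

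Both arms of 19 hairpins, counted by name, were tested. The difference between the 5p and the 3p level in a row does not depend on the reference. Since this test was chosen after the values were seen, it is a description of these rows with a limma fit over the 19 hairpins. The balance changed in 6 of 19 (31.6%), 5 toward 5p and 1 toward 3p. For miR-615, the 5p level minus the 3p level was -6.33, -6.67, -6.64 and -5.31 on day 1 and -9.78, -8.80, -9.54 and -8.26 on day 2. It fell by 2.86 ± 0.40 (adjusted p = 0.000146), and the rows were separate. The 5p arm had a mean Ct of 36.4 on day 2, where wells are less precise. For miR-335, the difference was -1.39, -1.65, -1.07 and -0.79 on day 1 and 1.95, 1.47, 1.16 and 0.41 on day 2. Every row of day 2 lay above every row of day 1, a change of 2.47 ± 0.50 (adjusted p = 0.00204). The arms are measured by different assays, so the sign of the difference does not show which arm was more abundant. The arms' own changes were 0.79 for 5p, which did not pass (adjusted p = 0.31), and -1.69 for 3p against MammU6, and 0.10 (adjusted p = 0.84) and -2.37 against the row median.

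The balance of miR-125b shifted by 1.44 ± 0.40 (adjusted p = 0.00957), that of miR-125a by 0.75 ± 0.16, that of miR-324 by 0.89 ± 0.22 and that of miR-345 by 0.91 ± 0.24, each toward 5p. For miR-125b this is not the balance of 1 hairpin. Its 5p sequence comes from 2 hairpins, Mir125b-1 and Mir125b-2, whereas its 3p assay was matched to Mir125b-1 alone. In miR-125a and miR-324 the rows were separate, and in miR-125b and miR-345 they overlapped. All 6 passed with any 1 row left out. The miR-542 arms, which rose together, had a change in balance of -0.42 ± 0.27 (adjusted p = 0.24).

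**Figure D4:**
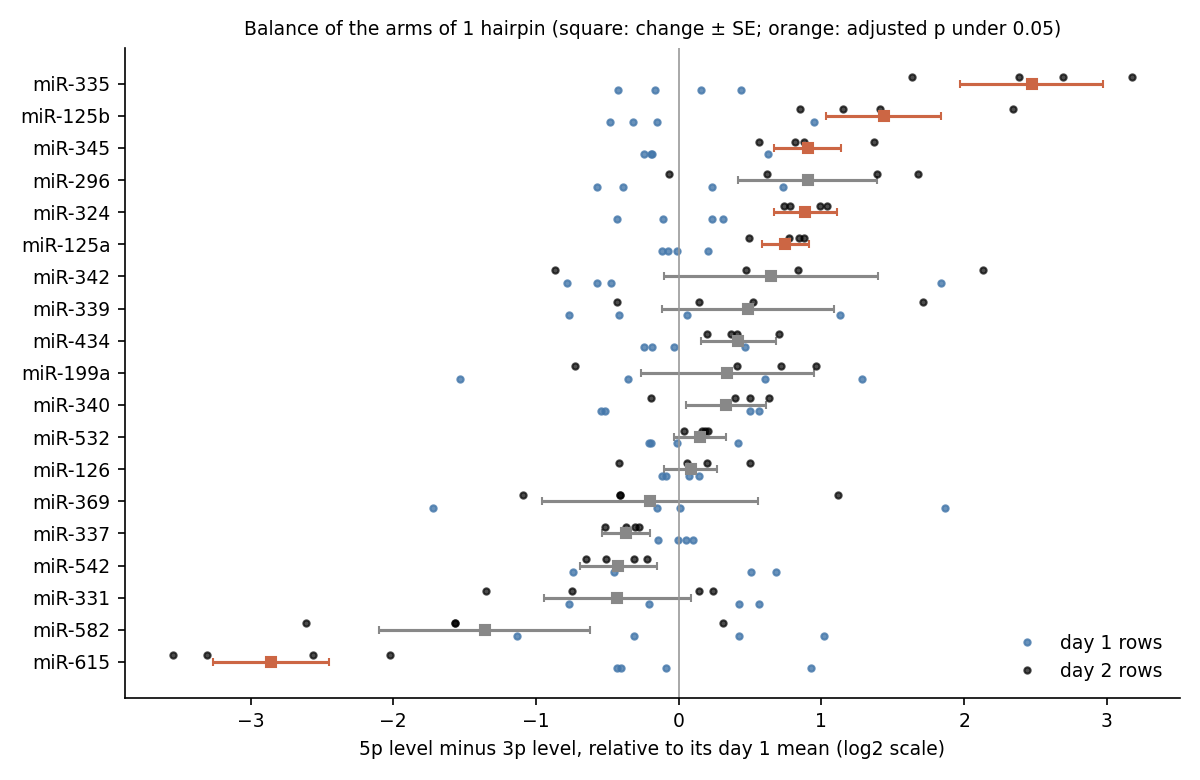
Level of the 5p arm minus level of the 3p arm (log2 scale), relative to its day 1 mean, for 19 hairpins counted by name. The 5p sequence of miR-125b comes from 2 hairpins. Dots are the rows of each day and squares the change from day 1 to day 2 with its SE, orange where the adjusted p was under 0.05. miR-335 lies farthest to the right (2.47) and miR-615 farthest to the left (-2.86).

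miRNAs of the miR-17-92 cluster and its paralogs are driven by Myc and E2F in dividing cells. Against MammU6 0 of the 11 tested passed in limma, and 0 had an unadjusted p under 0.05, with a median of 0.00 and a range of -0.57 to 0.34. Set against the row median, 8 of 11 fell, beside 13.7% of all assays, with a median of -0.68. miR-92a had levels of -5.29, -5.66, -5.15 and -5.06 on day 1 and of -5.38, -6.31, -6.07 and -5.70 on day 2, a change of -0.57 ± 0.29, and it fell by 1.26 against the row median (adjusted p = 0.00305). miR-17 and miR-106a, which differ at 1 position and share a seed, fell by 1.00 and 0.94 against the row median and lay at -0.31 and -0.26 against MammU6. In the row median fit miR-92a, miR-17, miR-106a, miR-20b and miR-25 passed with any 1 row left out. The call of miR-20a was lost in the absence of rows 2 or 3 (day 1) or 1 or 2 (day 2), that of miR-18a in the absence of these or row 4 (day 1), and that of miR-93 in the absence of rows 3 or 4 (day 1) or 1 or 2 (day 2), with changes of -0.86 to -0.51. miR-221 and miR-222, which lower the cell cycle inhibitor p27 in proliferating myoblasts, fell by 0.75 and 0.73 against the row median and lay at -0.07 and -0.04 against MammU6.

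Lower against the row median alone were also miR-31, which represses Myf5 mRNA in muscle stem cells (-0.89), miR-193b (-0.82), miR-132 (-0.80), miR-582-5p (-2.28), miR-672 (-1.60), miR-671-3p (-1.38), miR-615-3p (-1.36) and miR-125a-3p (-1.31). Their changes against MammU6 ran from -1.59 to -0.12. With any 1 row left out, each of these 8 still passed against the row median. miR-7a and miR-7b, which differ at 2 positions, lay at -1.12 and -1.09 against the row median, and lost the call in the absence of rows 2, 3 or 4 (day 1) or 1, 2 or 3 (day 2) for miR-7a, and of rows 3 or 4 (day 1) or 1 or 2 (day 2) for miR-7b (-1.41 to -0.76). miR-31, miR-221, miR-222 and miR-214 belong to a list of 20 tested miRNAs of myoblast differentiation that are not muscle-restricted. Of the 20, 3 passed higher against MammU6 (miR-322, miR-351, miR-503) and 0 lower, beside 11.6% and 1.66% of all assays. Against the row median 0 passed higher and those 4 lower, beside 5.39% and 13.7%. The medians were 0.34 and -0.34. miR-24, miR-26a, miR-27b, miR-29a, miR-29b, miR-29c and miR-181a passed against neither.

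Markers of other cell types were measured in the same rows. The fibroblast and smooth muscle markers (miR-21, miR-143, miR-145, both arms of miR-199a, miR-214) were tested in 6 of 6 and passed in 0 against MammU6 by limma, adjusted or not, with changes of 0.09 to 0.90 and a summed level (log2) of -5.68 to -4.67 in the rows of day 1 and -5.18 to -3.69 in those of day 2. Against the row median 1 of the 6 passed lower, miR-214 at -0.59, a share near the 13.7% of all assays. The blood cell markers passed in 0 of 6 against MammU6 by limma, adjusted or not. Their summed levels, over 5 of them without miR-451 (3 wells on day 1), were -8.06 to -6.71 and -8.03 to -7.36. That sum was carried mostly by miR-155, the earliest of them (mean Ct of 20.1 on day 1). Such sums add assays that may differ in efficiency, so they serve only to set 1 list side by side between the days. Against the row median 1 of the 6 passed lower, miR-150 at -0.97, a share near the 13.7% of all assays. In that fit 3 of the 6 had an unadjusted p under 0.05. Endothelial miR-126 had 0 of 2 arms past the test against either reference, with 0 at an unadjusted p under 0.05 against MammU6 and 1 against the row median. Among epithelial markers miR-200a, miR-200b and miR-429 had no Ct in any row and 0 of 3 tested passed, adjusted or not, and of 11 miRNAs of pluripotent cells 0 could be tested. The neural list had 2 of 4 tested members higher (miR-128a and miR-138), beside 11.6% of all assays, summed levels of -9.00 to -7.89 and of -7.50 to -7.01, and no Ct for its defining member miR-124. The part of other cell types in any result was not tested.

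The step from day 1 to day 2 was set against the steps before and after it in the same fit, which share its day 1 or day 2 rows. Against the step from day 0 to day 1, 0 of 237 assays differed (0%) in limma, with 15 at an unadjusted p under 0.05, and 0 against the row median, with 17 unadjusted. miR-503 lay at 1.03 in the first step and 1.67 in the second, and miR-1 at 0.29 and 3.01. Against the step from day 2 to day 5, 8 of 238 differed (3.36%), 7 with the higher change in the earlier step and 1 with the lower. Of these 8, 4 were assays of the X-linked cluster. miR-503 lay at 1.67 from day 1 to day 2 and at -1.17 from day 2 to day 5, miR-322 at 1.54 and -0.90, and miR-351 at 1.27 and -1.40 (rat-sequence assay 1.35 and -1.50). Its neighbours miR-542-3p and miR-450a-5p were not among the 8, and their mean levels went from -13.87 and -13.43 on day 2 to -13.17 and -13.00 on day 5. miR-335-3p lay at -1.69 and then -6.29, and miR-672 at -0.92 and then 2.82. The count of 8 was 1 without row 4 of day 2 and 3 without row 2 of day 2. It was 4 without row 3 of any of the 3 days, row 1 of day 1 or row 2 of day 5, and 5 without row 4 of day 5.

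**Figure D5:**
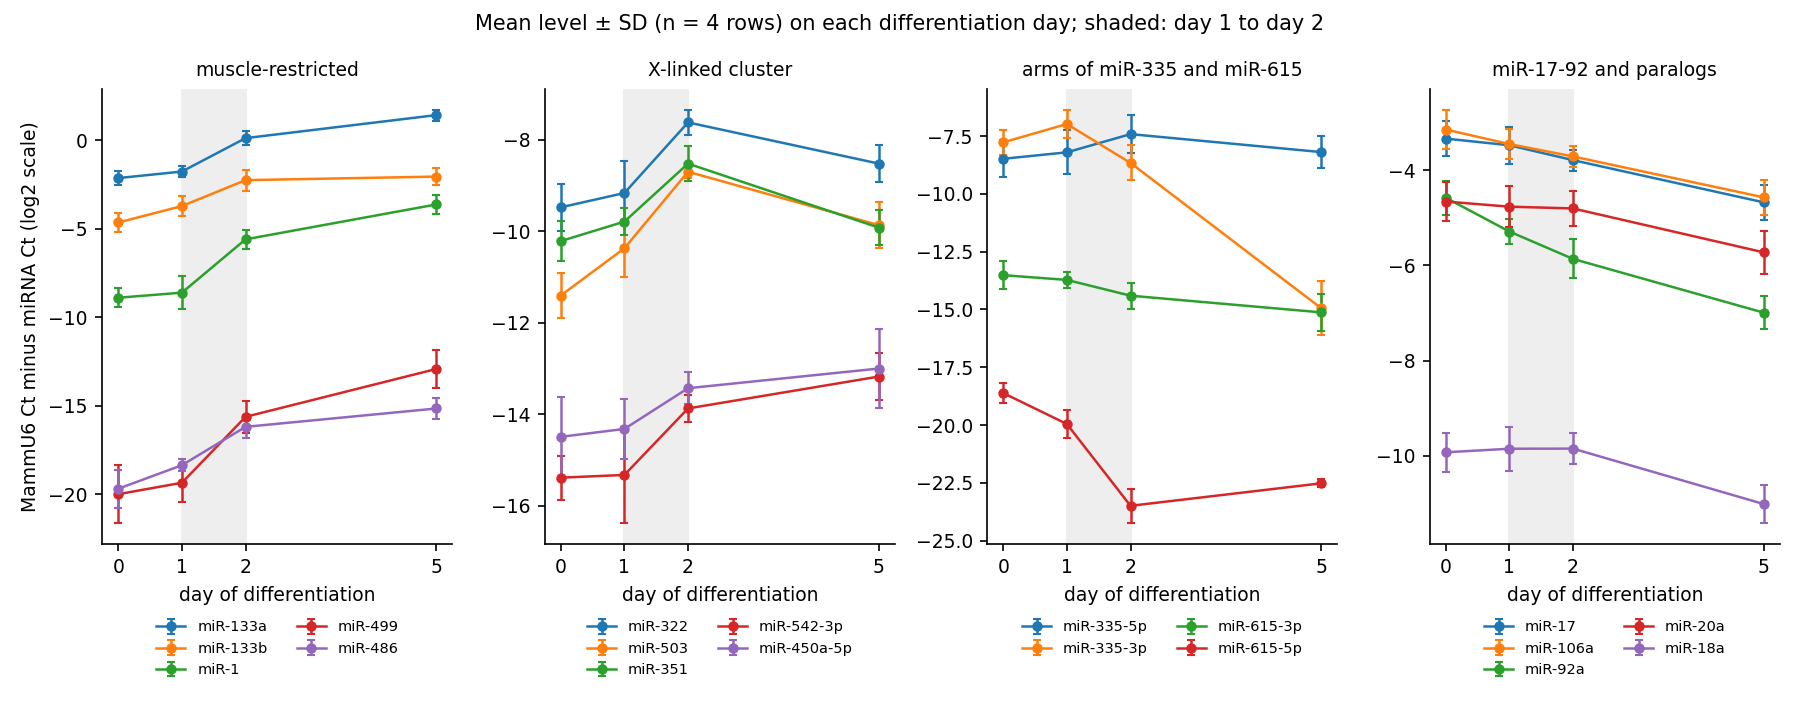
Mean level against MammU6 (log2 scale) ± SD of 4 rows on days 0, 1, 2 and 5 for muscle-restricted miRNAs, the X-linked cluster, both arms of miR-335 and miR-615, and the miR-17-92 group, with the step from day 1 to day 2 shaded. miR-322, miR-503 and miR-351 are highest on day 2, and miR-335-3p is lower on day 2 than on day 1.

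Of the 134 assays that were not tested, 45 had some Ct. Of these 39 were detected in too few wells and 6 were detected too late. In 0 assays were all 4 wells of 1 day detected and none of the other. miR-489, which is known to keep muscle stem cells quiescent, came nearest and is named after its values were seen. It had a Ct in 0 of 4 wells of day 1 and in 3 of 4 of day 2, at 34.49, 33.97 and 34.72.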

How the data were processed

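The authors deposited raw Ct values of TaqMan miRNA assays, in 4 rows for each assay and day, per the file headers and the labels' protocols. Other data reduction steps are not given in the sources used here. A deposited value table holds a score per assay, a signed fold. It equals the change in mean level against MammU6 computed here, day 2 over day 1, within 0.001 log2 in 225 of 225 shared assays, and lacks 16 tested ones, miR-615-5p among them. RIN exceeded 9, per the labels.

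Undetermined wells were left out. Levels of days 0, 1, 2 and 5 entered 1 limma fit (limma 3.58.1, R 4.3.3, lmFit and eBayes, no pairing, two-sided), with variance shared over the 251 assays testable between any pair of these days. Adjustment was over 241 assays. The number of rows limits the precision. The labels state no pairing and give the rows no number, so rows were not paired. Rows of days 1 and 2 at the same position correlated at 0.53, 0.03, 0.08 and 0.25 over assays. Those at different positions correlated at -0.42 to 0.24. A fit with row position as a block is among the alternatives. Named were all assays past the threshold, the largest changes against the row median, and members of the lists, of which a part is printed. Members, lists and tests were chosen with earlier results of these data known. Python 3.11.15 and matplotlib 3.10.9 drew the figures. Alternatives are given at the end.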

Additional observations from a re-analysis of the deposited data

Results flagged for a closer look

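In 190 groups of 4 rows of the named miRNAs, 8 (4.21%) had a row far from the other rows by Dixon's ratio, and chance alone flags about 1 in 20. Against MammU6 these were row 4 of day 1 for miR-351 (-9.34, beside -9.99 to -9.88) and for the rat-sequence assay of miR-339-3p (-13.58, beside -14.24 to -14.17). In row 1 of day 2, where MammU6 was late, they were miR-128a (-8.08, beside -9.35 to -9.18), miR-362-3p (-9.98, beside -11.16 to -11.06) and miR-672 (-14.92, beside -16.26 to -16.12). Against the row median they were miR-133b in row 4 of day 2 (9.04, beside 9.39 to 9.42), miR-298 in row 1 of day 2 (-0.65, beside -0.34 to -0.28) and miR-193b in row 3 of day 2 (1.93, beside 1.67 to 1.71).

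The change from day 1 to day 2 differed from that between day 2 and day 5 by the limma contrast for 8 assays. The difference, earlier step minus later step, was 2.44 for miR-322 (adjusted p = 0.0412), 2.84 for miR-503 (adjusted p = 0.0159), 2.67 for miR-351 (adjusted p = 0.0111) and 2.85 for the rat-sequence assay of miR-351 (adjusted p = 0.00497). It was 4.61 for miR-335-3p (adjusted p = 0.0111), 2.07 for miR-188-5p, 2.04 for miR-431 and -3.73 for miR-672 (adjusted p = 0.0412 each).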

How the results depend on the processing

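The 32 calls against MammU6 became 53 with snoRNA135 as the reference (24 of the 32 kept) and 8 with Y1 (6 kept). They became 35 with snoRNA202 (18 kept), 25 with U87 (16 kept) and 34 with the mean of the 4 other controls (17 kept). With Y1 the calls of miR-133a, miR-133b and the rat-sequence assay of miR-1 were lost, and those of miR-499, miR-1 and miR-486 were kept. The calls were 50 with the day mean of MammU6 (22 kept) and 14 with Welch's test per assay (13 kept). They were 51 at an adjusted p under 0.1, 13 under 0.01, and 17 to 44 with each row of days 1 and 2 left out in turn. None of the 32 turned sign in these settings. With row position as a replicate block they were 126, and 85 with the block and the row median, but the rows are not known to be paired. The 46 calls against the row median were 85 with the block and 35 to 49 with a row left out. The block gave 12 calls for the difference from the step before and 34 for that from the step after, where the row median gave 20, and leaving out rows gave 0 to 0 and 1 to 8. It gave 3 of 4 controls past the test (U87, Y1 and snoRNA202, 0.38 to 0.50), and 4 of 6 arm shifts kept, miR-335 and miR-345 being lost. Arm shifts numbered 6 to 7 with a row left out. With 3 wells of 1 day and none of the other, 1 assay (miR-489) was detected on 1 day only. Changes near 0 turned sign. miR-196b was at -0.65 (row median, with and without the block), -0.15 (snoRNA135), -0.34 (snoRNA202), -0.44 (U87), -0.46 (Y1), -0.35 (mean of these 4), -0.13 without row 1 of all days, and -0.18 to 0.28 with a row left out. In the same order of references miR-125a-5p was at -0.56, -0.062, -0.26, -0.35, -0.37 and -0.26, and at -0.017 to 0.20 with a row left out. miR-125b-5p was at -0.35 (row median), -0.045 (snoRNA202), -0.14 (U87), -0.16 (Y1) and -0.051 (mean of the 4), and at -0.056 to 0.60 with a row left out. Between references, these values differ by the change of the reference itself against MammU6, from 0.185 (snoRNA135) to 0.495 (Y1) among the controls. Why the references moved apart was not tested. Ct above 35 and 4 rows a day limit what can be detected.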
